A study of Homo sapiens with 4 samples.

Results

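The nuclear-encoded subunits of respiratory complexes I, III and IV were followed in SKBR3 cells with and without overexpression of VIRMA, a scaffold protein of the m6A methyltransferase, which places N6-methyladenosine on mRNA. The 55 genes were chosen by symbol from the 56271 rows of the count table, as 36 NDUF genes of complex I, 8 UQCR genes and CYC1 of complex III (9 in all), and 10 COX genes of complex IV. SKBR3 is an established HER2-positive breast cancer cell line. Poly-A-enriched RNA was sequenced from 2 libraries of eGFP control cells and 2 libraries of VIRMA-overexpressing cells. Control cells carried eGFP in a lentiviral FUW vector, and VIRMA-overexpressing cells carried HA-tagged full-length VIRMA joined to eGFP by a p2A peptide in the same kind of vector. Both were sorted for eGFP and grown as pools, so the groups shared the line, the vector backbone and eGFP. The culture notes filed with each library mention a low-oxygen chamber and protein extraction whereas the study describes ordinary culture, so the oxygen level is uncertain, with the same wording in both groups. The study calls the libraries of a group biological duplicates, and the labels name no separate animals or donors, so p-values measure the spread between these libraries.

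Complexes I, III and IV are the proton-pumping enzymes of the respiratory chain in the inner mitochondrial membrane. Complex I oxidizes NADH and passes electrons to coenzyme Q, complex III passes them to cytochrome c, and complex IV passes them to oxygen. Each complex is assembled from a few subunits encoded in mitochondrial DNA and many encoded in the nucleus, which are translated in the cytosol and imported, so transcripts of both genomes feed 1 enzyme.

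The libraries held 81446932 to 86375474 counts, and VIRMA, listed under its older symbol KIAA1429, checked the labels. VIRMA had 710 and 682 counts in the eGFP control libraries and 3437 and 3460 counts in the VIRMA-overexpressing libraries (log2 fold change 2.29, SE 0.0685, adjusted p 9.74e-26, edgeR quasi-likelihood test). All log2 fold changes are VIRMA-overexpressing over eGFP control, and adjusted p-values are from edgeR with Benjamini-Hochberg adjustment over the 12205 tested genes, which are those above 1 RPKM in at least 2 libraries. ERBB2, which defines a HER2-positive line, was at 6933 to 7098 CPM (counts scaled to a common library size after TMM normalization) in the 4 libraries, while the summed level of 10 markers of leukocytes, endothelium and fibroblasts was 17 to 18.8 CPM in the controls and 11.5 to 12.4 CPM with VIRMA, most of it COL1A1, the 1 marker of the 10 that passed the filter on low values. Of 6 tested markers of the line 3 fell (KRT8 by 0.51, EPCAM by 0.39 and KRT19 by 0.12 on the log2 scale), 2 rose (GRB7 by 0.43 and KRT18 by 0.075) and ERBB2 passed in neither direction. CDH1, also listed as a marker of the line, did not pass the filter, with 11 and 5 counts in the controls and 17 and 33 with VIRMA. At an adjusted p below 0.05, 35.9% of all tested genes fell and 35.1% rose. The part of these markers in the results below was not tested. In bulk RNA, fewer cells of a type and less RNA per cell cannot be told apart.

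Transcripts of most nuclear-encoded subunits were lower in VIRMA-overexpressing cells, by modest amounts. Of the 53 members that passed the filter on low values, 43 (81.1%) fell and 4 (7.55%) rose at an adjusted p below 0.05. Across all tested genes these calls were frequent, with 35.9% lower and 35.1% higher, so the members' share of lower calls was above the background and their share of higher calls below it. The median log2 fold change of the tested members was -0.31, a difference of -19.3%, with a middle 50% from -0.48 to -0.16, whereas the median over all tested genes was 0.01, with a middle 50% from -0.31 to 0.36. None of the members passed the study's threshold of an absolute log2 fold change above 1, which 7.46% of all tested genes passed. Below a log2 fold change of -0.5 the count was 11 members (20.8%) against 13.6% of all tested genes. Above 0.5, where 16.1% of all tested genes lay, the 1 member was NDUFA13, which passed the filter on low values only through the VIRMA-overexpressing libraries, so its place among the rising members is no support for a rise, and 3 rising members are left without it. The count of 11 rested on the controls, with 17 members when eGFP control library 1 was left out and 7 when eGFP control library 2 was left out.

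The fall was shared by the 3 complexes. In complex IV all 10 nuclear subunits fell, with a median log2 fold change of -0.39. In complex III 8 of 9 fell and none rose, with a median of -0.34. In complex I 25 of 34 tested subunits fell and 4 rose, with a median of -0.28. Both VIRMA-overexpressing libraries lay below both controls in 46 of the 53 tested members (86.8%) and above both in 5, and the corresponding shares of all tested genes were 41.6% and 42.7%. The libraries of the 2 groups overlapped for NDUFB1 and NDUFS4 only.

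**Figure D1:**
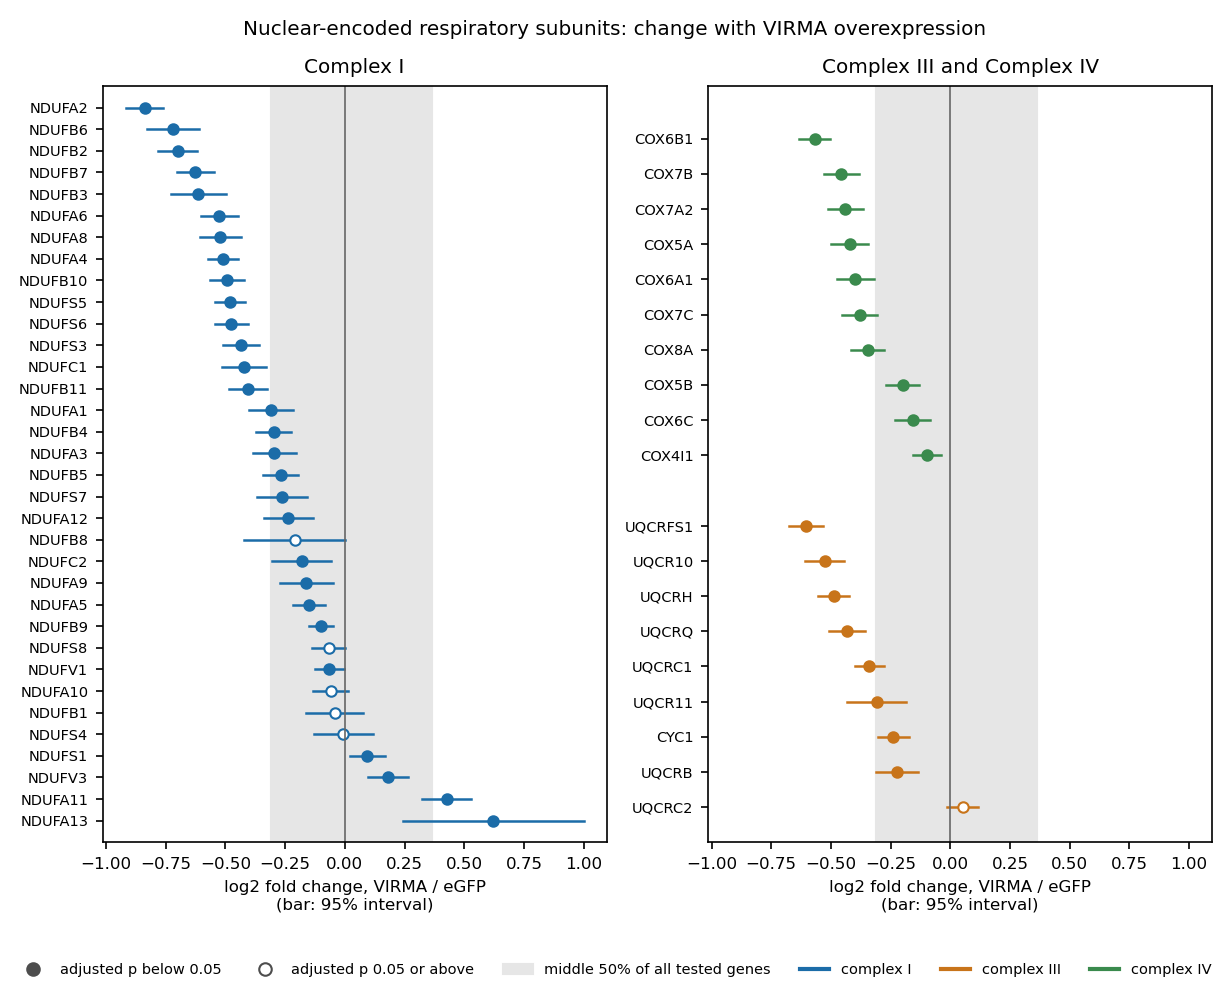
Log2 fold change (x axis, VIRMA-overexpressing over eGFP control) of the 53 tested subunits with 95% intervals from edgeR, by complex. Filled points passed an adjusted p of 0.05, open points did not, and the grey band is the middle 50% of all tested genes. Most points lie left of 0, with NDUFA2 lowest at -0.84 and NDUFA13 highest at 0.62.

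**Figure D2:**
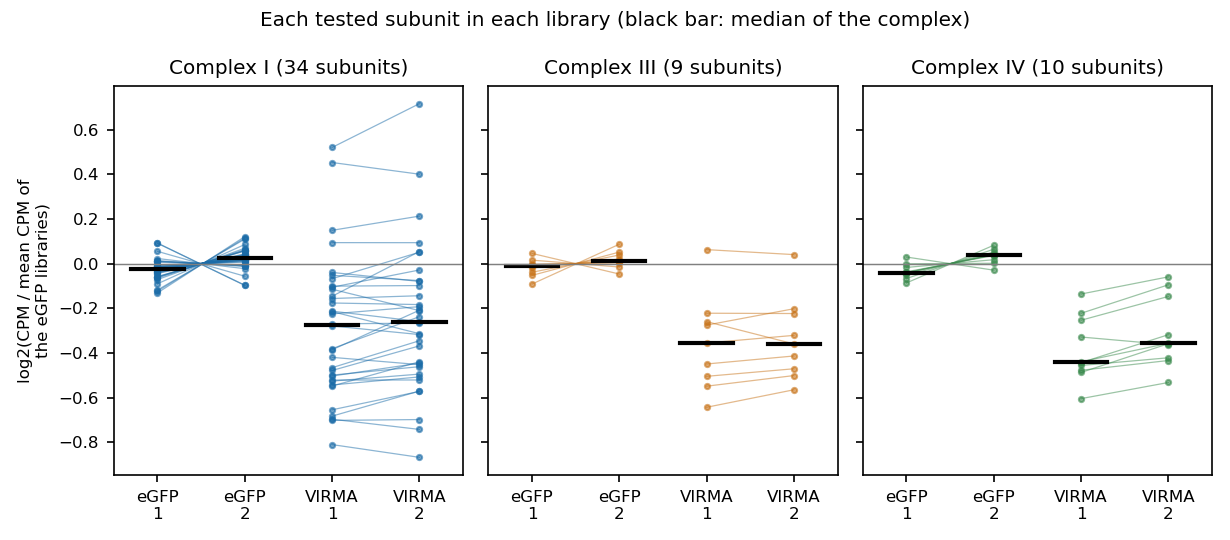
Log2 of the CPM of each tested subunit over its mean in the eGFP control libraries (y axis) in each of the 4 libraries (x axis), with thin lines joining the libraries of a group and black bars for the median of the complex. The eGFP control points lie close to 0 and most VIRMA-overexpressing points lie below it in all 3 complexes.

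The promoters of these genes are known for sites of nuclear respiratory factor 1 (NRF1), of the ETS family factor GABP and of YY1, so their letters are shown for subunits of each complex. RefSeq promoter sequences (build GRCh38.p14, 250 bases before to 50 after the start) matched 47 of the 55 members by symbol. The NRF1 core GCATGCGC, searched on both strands as were the others, was in 14.9% of the 47 promoters, in 3.27% of all 27305 promoters and in 5.87% of the 7990 matched promoters of tested genes. The strands of this motif share letters, so that a longer match can be read on both. The ETS letters CCGGAAG were in 27.7% of the member promoters, 10.7% of all promoters and 21.2% of those of tested genes. The YY1 letters AAGATGGC were in 14.9%, 3.03% and 6.17%, and TATAAA was in 10.6%, 12% and 4.94%. Windows of 30 bases follow in the direction of transcription with the matched letters, on either strand, in capitals. The first 4 hold the NRF1 core, the next 5 the ETS letters and the last 2 the YY1 letters.
NDUFA6, chr22:42090920-42090949, minus strand: tctgtagatgaGCATGCGCagcacccaccg
NDUFS6, chr5:1801350-1801379, plus strand: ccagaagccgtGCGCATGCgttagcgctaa
COX5B, chr2:97645915-97645944, plus strand: ggcagagctggGCATGCGCaatttccgccc
COX6A1, chr12:120437928-120437957, plus strand: ggaggtgcagaGCGCATGCtctctcttgcc
NDUFB7, chr19:14572072-14572101, minus strand: gcctaaatgacCCGGAAGctgtgtctgact
UQCRH, chr1:46303641-46303670, plus strand: agtgtgccgcaCTTCCGGccagatcgccgg
UQCRQ, chr5:132866577-132866606, plus strand: aatggtatctcCCGGAAGttacctcacgac
COX6B1, chr19:35648300-35648329, plus strand: acctctctcagCTTCCGGctggtagtagtt
COX8A, chr11:63974591-63974620, plus strand: cagctccagaaCTTCCGGccagcgcagcca
NDUFA6, chr22:42090729-42090758, minus strand: gatgctttggcAAGATGGCggggagcggcg
UQCRC1, chr3:48609605-48609634, minus strand: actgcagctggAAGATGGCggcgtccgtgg

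The 10 genes shown all fell, with log2 fold changes from -0.20 for COX5B to -0.63 for NDUFB7. They are a choice from the matches that left out members that did not fall, so their shared direction is no result. The 22 tested members with the NRF1, ETS or YY1 letters had a median log2 fold change of -0.32, and the 23 without any had a median of -0.40. Members that did not fall held letters too, as the ETS letters were in NDUFS1 and NDUFA13 and the YY1 letters in NDUFS4 and NDUFA7. A match of letters is a description of the sequence and says nothing of binding in these cells.

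The core subunits of complex I carry its flavin and iron-sulfur clusters and the path of electrons to coenzyme Q, and they changed little apart from NDUFS3 and NDUFS7. Of the 5 core subunits tested, 3 fell and 1 rose, with a median log2 fold change of -0.07, against -0.30 over the 29 tested supernumerary subunits, of which 22 fell and 3 rose. NDUFS3, a subunit of the arm that reaches coenzyme Q, was at 113 and 118 CPM in the controls and 86.3 and 84.3 CPM in VIRMA-overexpressing cells (log2 fold change -0.44, SE 0.0369, adjusted p 7.61e-13, edgeR). NDUFS7, an iron-sulfur subunit of the same arm, was at 61.6 and 54.0 CPM in the controls and 49.8 and 46.5 CPM with VIRMA (log2 fold change -0.26, SE 0.0510, adjusted p 2.34e-05, edgeR). Neither gene's groups overlapped, although the controls of NDUFS7 spread more widely.

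NDUFV1, which binds the flavin that accepts electrons from NADH, was at 394 and 388 CPM in the controls and 377 and 371 CPM with VIRMA (log2 fold change -0.06, SE 0.0292, adjusted p 0.0483, edgeR). NDUFS8, another iron-sulfur subunit, was at 163 and 167 CPM and at 153 and 162 CPM (log2 fold change -0.07, SE 0.0339, adjusted p 0.0759, edgeR). For both genes the VIRMA-overexpressing libraries lay just below the controls, and both differences changed sign under other scalings, as NDUFV1 came to 0.019 and NDUFS8 to 0.016 with library totals. The call of NDUFV1 was also lost with any 1 of the 4 libraries left out, with adjusted p-values from 0.0552 to 0.236 (edgeR). NDUFS1, the largest iron-sulfur subunit, was at 92.5 and 93.3 CPM in the controls and 99.1 and 99.1 CPM with VIRMA (log2 fold change 0.09, SE 0.0365, adjusted p 0.0224, edgeR). It lay slightly above the controls in both libraries, and with each of 3 libraries left out in turn (eGFP control 1, VIRMA-overexpressing 1 and VIRMA-overexpressing 2) it no longer passed, with adjusted p-values up to 0.101. DESeq2 gave it an adjusted p of 0.0504, and with other filters edgeR gave 0.138 (at least 10 counts in every library), 0.275 (filterByExpr) and 0.334 (no filter).

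NDUFV2, the sixth core subunit on the list, did not pass the filter on low values. Its row counted 103 and 119 reads in the control libraries against 148 and 169 with VIRMA, which is 1.24 to 2.02 CPM and far below every tested core subunit. Of its exonic bases, 28.4% were shared with another row on the same strand, and the row of its pseudogene NDUFV2P1 held 216, 226, 174 and 197 counts, more than NDUFV2 itself in every library. NDUFA7, a supernumerary subunit, was also below the filter, with 41 and 46 counts in the controls and 78 and 82 with VIRMA, and 32.3% of its exonic bases were shared on the same strand. Both rows were higher in both VIRMA-overexpressing libraries, and without a filter neither passed (log2 fold change 0.46 with an adjusted p of 0.169 for NDUFV2 and 0.82 with 0.0665 for NDUFA7, edgeR). How reads that fit more than 1 row were counted is not given in the sources used here, so the level of both genes is uncertain.

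The 5 members that fell most were supernumerary subunits of complex I, 4 of them NDUFB subunits of its membrane arm. NDUFA2, which sits in the arm that oxidizes NADH, was at 143 and 132 CPM in the controls and 78.5 and 75.4 CPM with VIRMA (log2 fold change -0.84, SE 0.0389, adjusted p 4.14e-20, edgeR), a difference of -44.1%. NDUFB6 was at 42.6 and 43.5 CPM in the controls and 26.5 and 25.7 CPM with VIRMA (log2 fold change -0.72, SE 0.0543, adjusted p 3.70e-14, edgeR). NDUFB2 was at 88.3 and 85.6 CPM and at 53.4 and 53.6 CPM (log2 fold change -0.70, SE 0.0403, adjusted p 1.90e-17, edgeR). In these 3 genes the gap between the groups was several times the spread within them. NDUFB7 was at 136 and 142 CPM in the controls and 86.5 and 93.5 CPM with VIRMA (log2 fold change -0.63, SE 0.0384, adjusted p 1.15e-16, edgeR). NDUFB3 was at 39.8 and 41.4 CPM and at 25.8 and 27.3 CPM (log2 fold change -0.61, SE 0.0560, adjusted p 5.24e-12, edgeR). No group overlapped in any of the 5. Exons of NDUFB2 are overlapped by BRAF over 27.9% of their bases and those of NDUFB3 by FAM126B over 19.8%, both on the opposite strand. The counts of both neighbours were higher with VIRMA, from 857 and 885 to 1077 and 1039 for BRAF and from 554 and 618 to 865 and 747 for FAM126B, opposite to the members.

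Within complex I the families of subunits differed in their medians. The 11 NDUFB subunits, accessory parts of the membrane arm, had the lowest median at -0.40, with 9 that fell and none that rose. Of 12 tested NDUFA subunits 9 fell and 2 rose, with a median of -0.27. Of 7 NDUFS subunits 4 fell and 1 rose, with a median of -0.26. Both NDUFC subunits fell, with NDUFC1 at -0.42 and NDUFC2 at -0.18, and of the 2 tested NDUFV subunits NDUFV1 fell and NDUFV3 rose. Without eGFP control library 2 NDUFC2 (-0.09, adjusted p 0.28, edgeR) and NDUFA9 (-0.10, adjusted p 0.158, edgeR) no longer passed, nor did NDUFA9 without VIRMA-overexpressing library 2 (-0.12, adjusted p 0.105, edgeR). NDUFB8, whose level was only 7.88 to 9.33 CPM, had a log2 fold change of -0.21 with an adjusted p of 0.0717 (edgeR). NDUFB1, at 47.2 and 56.2 CPM in the controls and 46.7 and 53.7 CPM with VIRMA, and NDUFS4, an accessory subunit of the NADH-oxidizing arm, at 28.4 and 28.9 CPM and at 27.3 and 29.6 CPM, were the members whose groups overlapped. Their log2 fold changes were -0.04 (95% interval -0.16 to 0.08) and -0.01 (95% interval -0.13 to 0.12). NDUFA10, at 116 and 122 CPM in the controls and 116 and 112 CPM with VIRMA, had a log2 fold change of -0.06 and an adjusted p of 0.139 (edgeR).

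Only 4 members rose, all in complex I (2 of them when VIRMA-overexpressing library 2 was left out), and NDUFA11 had the smallest adjusted p of them. NDUFA11, a membrane-arm subunit, was at 33.5 and 33.2 CPM in the controls and 45.7 and 44.0 CPM with VIRMA (log2 fold change 0.43, SE 0.0507, adjusted p 2.82e-09, edgeR). NDUFV3, an accessory subunit of the NADH-oxidizing arm, was at 64.7 and 68.7 CPM and at 73.9 and 77.3 CPM (log2 fold change 0.18, SE 0.0416, adjusted p 2.38e-04, edgeR). Both lay above the controls in both VIRMA-overexpressing libraries. NDUFA13, also known as GRIM-19, was covered by 189 and 167 reads in the eGFP control libraries against 262 and 293 with VIRMA, or 0.839 and 0.737 RPKM and 1.13 and 1.29 RPKM, so that it entered the test only through the group where it was higher. Its log2 fold change was 0.62 (SE 0.187, adjusted p 3.63e-03, edgeR), and 0.59 with an adjusted p of 0.00869 without a filter. Without VIRMA-overexpressing library 2 its log2 fold change was 0.52 and its adjusted p 0.0683. YJEFN3, which shares 4.84% of the exonic bases of NDUFA13 on the same strand, rose from 387 and 402 counts to 1070 and 903, and the row CTC-260F20.3, which shares 16.1%, went from 30 and 46 to 96 and 75. The part of these neighbours in the value of NDUFA13 was not tested.

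In complex III the 2 nuclear-encoded catalytic subunits fell. UQCRFS1, the Rieske iron-sulfur protein, was at 163 and 164 CPM in the controls and 104 and 110 CPM with VIRMA (log2 fold change -0.60, SE 0.0350, adjusted p 2.42e-17, edgeR), the largest fall of the complex. CYC1, cytochrome c1, was at 301 and 306 CPM and at 251 and 264 CPM (log2 fold change -0.24, SE 0.0315, adjusted p 2.56e-08, edgeR). Neither overlapped between groups. The pair of core proteins on the matrix side parted. UQCRC1 was at 312 and 314 CPM in the controls and 245 and 251 CPM with VIRMA, a log2 fold change of -0.34 (adjusted p 3.48e-12, edgeR). UQCRC2 was at 193 and 189 CPM and at 200 and 197 CPM, a log2 fold change of 0.05 with an adjusted p of 0.149 (95% interval -0.01 to 0.12, edgeR), and the difference between the members of the pair was not tested. UQCRC2 passed as higher under other scalings, at 0.12 with upper-quartile factors, 0.13 with library totals and 0.16 with library totals without mitochondrial genes. The small subunits UQCR10 (-0.53), UQCRH (-0.49), UQCRQ (-0.43), UQCR11 (-0.31) and UQCRB (-0.22) all fell.

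In complex IV each of the nuclear subunits fell. COX4I1, the largest nuclear subunit, fell least, from 551 and 565 CPM in the controls to 508 and 535 CPM with VIRMA (log2 fold change -0.10, SE 0.0296, adjusted p 3.88e-03, edgeR). This call was lost, with adjusted p-values of 0.428 and 0.674, with upper-quartile factors and with library totals, and it was lost at 0.17 without VIRMA-overexpressing library 1. COX5A, which binds beside COX4I1, was at 176 and 186 CPM and at 129 and 141 CPM (log2 fold change -0.42, SE 0.0373, adjusted p 2.35e-12, edgeR). COX5B, a zinc-binding subunit, was at 349 and 368 CPM and at 301 and 324 CPM (log2 fold change -0.20, SE 0.0335, adjusted p 2.42e-06, edgeR). No group of the 3 overlapped. COX6B1, which faces the intermembrane space at the cytochrome c side, fell most, from 452 and 476 CPM to 305 and 321 CPM (log2 fold change -0.57, SE 0.0316, adjusted p 6.91e-18, edgeR). The other 6 ranged from -0.16 for COX6C to -0.46 for COX7B. NDUFA4, named as a complex I gene but found as a subunit of complex IV, fell from 336 and 348 CPM to 237 and 243 CPM (log2 fold change -0.51, SE 0.0308, adjusted p 7.34e-17, edgeR).

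Levels per length differed more between subunits of complex I than of complex IV. In the controls the median was 34.0 RPKM (CPM divided by exonic length in kilobases) for complex I, 85.7 RPKM for complex III and 125 RPKM for complex IV, and with VIRMA it was 24.1, 63.6 and 102 RPKM. The highest subunit of complex IV, COX6B1, was 6.55-fold above the lowest, COX6A1, in the controls. In complex III UQCRH stood 52.5-fold above UQCRB. In complex I NDUFS5 was highest in the controls at 531 RPKM, and NDUFB9 at 480 RPKM came next. NDUFA7, NDUFV2 and NDUFA13 were below 1 RPKM in the controls. The length is that of all exons merged over a gene's transcripts, so the level of a gene with long rare transcripts is understated.

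**Figure D3:**
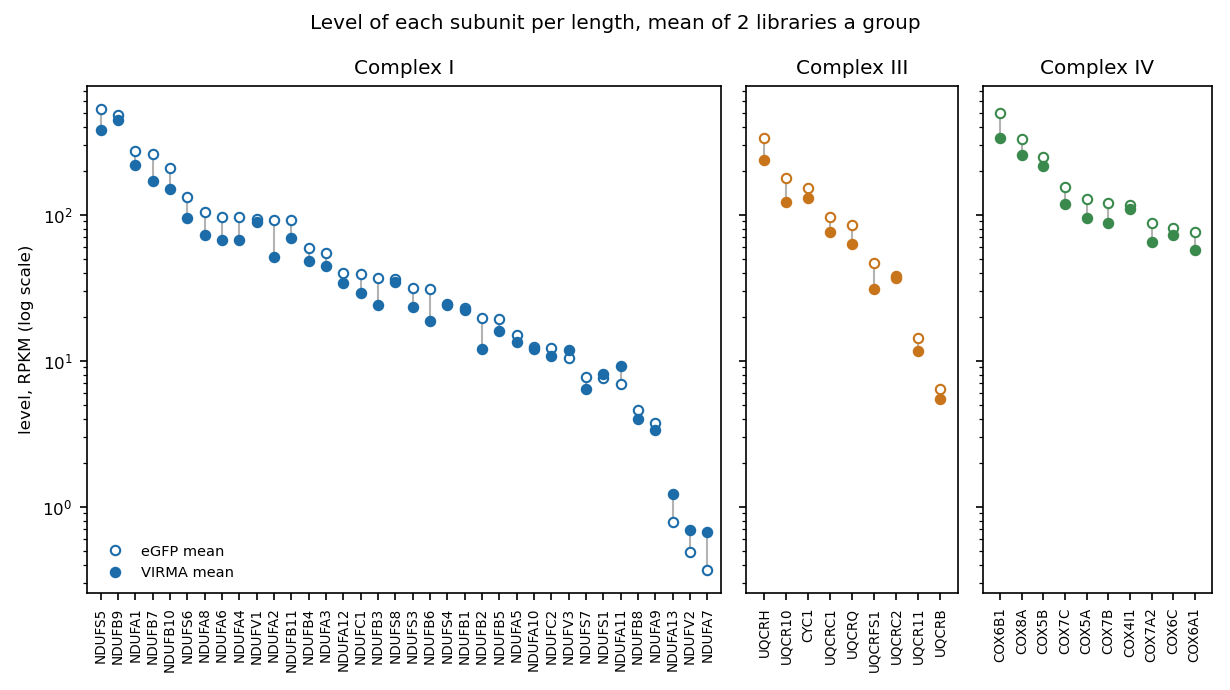
Mean level of each of the 55 subunits in RPKM (y axis, log scale) in the eGFP control libraries (open points) and the VIRMA-overexpressing libraries (filled points), 2 libraries a group, ordered by the control level within each complex (x axis). The subunits of complex IV lie in the narrowest range, from 75.7 RPKM for COX6A1 to 496 RPKM for COX6B1 in the controls.

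Subunits encoded by short gene models fell more than those encoded by long ones. Across the 53 tested members the log2 fold change rose with exonic length, with a Spearman rho of 0.58 and a Pearson r on log2 length of 0.49. Members share libraries and scaling, so this is a description. Over all 12205 tested genes the same values were 0.08 and -0.05. The 7 members with models up to 1000 bases had a median log2 fold change of -0.52, while the 1569 tested genes of that length had a median of 0.22. The 20 members of 1000 to 2000 bases had a median of -0.42, against -0.15 for 1135 genes, and all 27 members up to 2000 bases had a negative log2 fold change. The 13 members of 2000 to 4000 bases had a median of -0.30, against -0.12 for 3104 genes. The 8 members of 4000 to 8000 bases had a median of -0.08, against 0.02 for 4464 genes. The 5 longer ones had a median of -0.15, with 4 of them negative, against 0.15 for 1933 genes. In every length class the members' median was thus below that of all tested genes. Against the mean CPM the members gave a Spearman rho of -0.13.

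**Figure D4:**
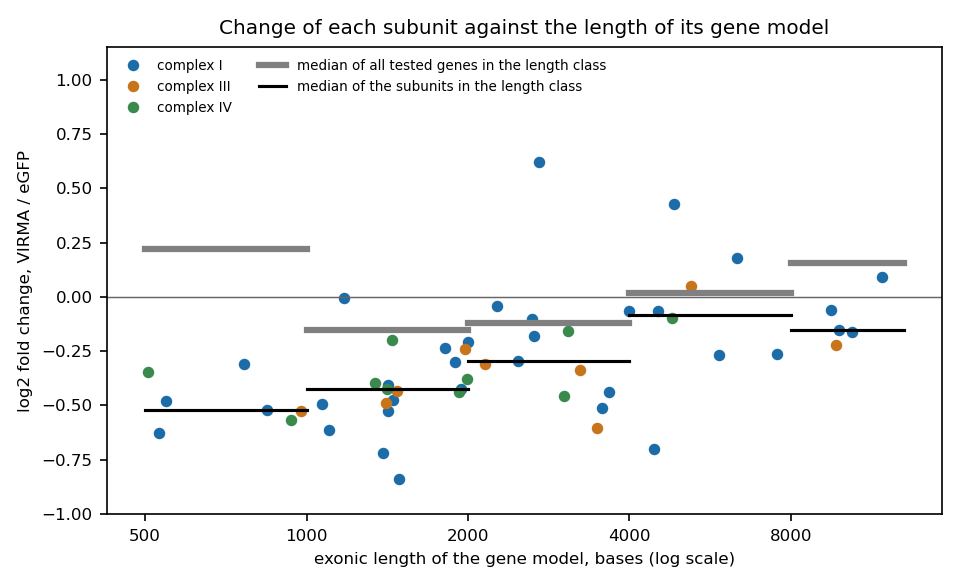
Log2 fold change of each tested subunit (y axis) against the exonic length of its gene model in bases (x axis, log scale), coloured by complex, with the median of the subunits (black) and of all tested genes (grey) in 5 length classes. The subunits' median goes from -0.52 in the shortest class to -0.08 in the class of 4000 to 8000 bases.

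Other rows shared exonic bases with 20 members over at least 10% of their length, 10 of them on the same strand, and 14 of the 18 tested ones fell and 3 rose. Among the 35 members overlapped less than that, all tested, 29 fell and NDUFV3 alone rose, with a median log2 fold change of -0.30. Processed pseudogenes, common for these genes, had 105 rows for 30 members and held 0.08% as many counts as all members together, and NDUFV2 alone had a pseudogene share above 10%. The 4 members on chromosome 8, where VIRMA itself lies, all fell, at -0.10 for NDUFB9, -0.16 for COX6C, -0.22 for UQCRB and -0.24 for CYC1. The call of NDUFB9 was lost with upper-quartile factors, library totals and library totals without mitochondrial genes (adjusted p 0.311, 0.567 and 0.848, edgeR), with a positive sign in the last. That of COX6C was lost with both library totals (0.062 and 0.181).

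The nuclear subunits of each complex were lower in sum, while the sums of the mitochondrially encoded ones differed less or were higher. The members together took 0.951% and 0.980% of all counts in the controls and 0.823% and 0.844% with VIRMA. Their summed level was 9766 and 10110 CPM in the controls and 7975 and 8221 CPM with VIRMA, a difference of -18.5%. By complex the difference was -16.7% for complex I, -21.6% for complex III and -19.9% for complex IV. The 7 mitochondrially encoded subunits of complex I differed by -2.42% and the single one of complex III, MT-CYB, by -0.92%, and both values changed sign with library totals. The 3 of complex IV were higher in sum, at 55067 and 56311 CPM in the controls and 61103 and 61271 CPM with VIRMA, a difference of 9.87%. No sum of the nuclear subunits overlapped between groups, but 2 libraries against 2 cannot reach a p below 0.33 in an exact two-sided permutation test, and 0.333 was the p of each of these sums of nuclear subunits.

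The balance between counted transcripts of the genomes, in this poly-A-enriched RNA, differed in each complex, by the most in complex IV. Its ratio of mitochondrially to nuclear-encoded counts was 19.4 and 18.8 in the controls and 26.8 and 25.5 with VIRMA. In complex III the ratio went from 3.17 and 3.13 to 4.04 and 3.93, and in complex I from 7.67 and 7.80 to 9.08 and 9.03. This ratio does not depend on the scaling, and no group overlapped (exact two-sided permutation p of 0.333 for each). How well the poly-A step captured transcripts of each genome was not tested. Among the 11 mitochondrially encoded subunits 4 rose and 3 fell, against 35.1% and 35.9% of all tested genes. MT-CO1 and MT-CO2, catalytic subunits of complex IV, rose by 0.17 and 0.16 on the log2 scale, and MT-CO3 fell by 0.15. MT-ND5 and MT-ND6, from neighbouring genes on opposite strands, fell by 0.42 and 0.43. Where strand was not used in the counting, reads that run from one of them into the other cannot be told apart.

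**Figure D5:**
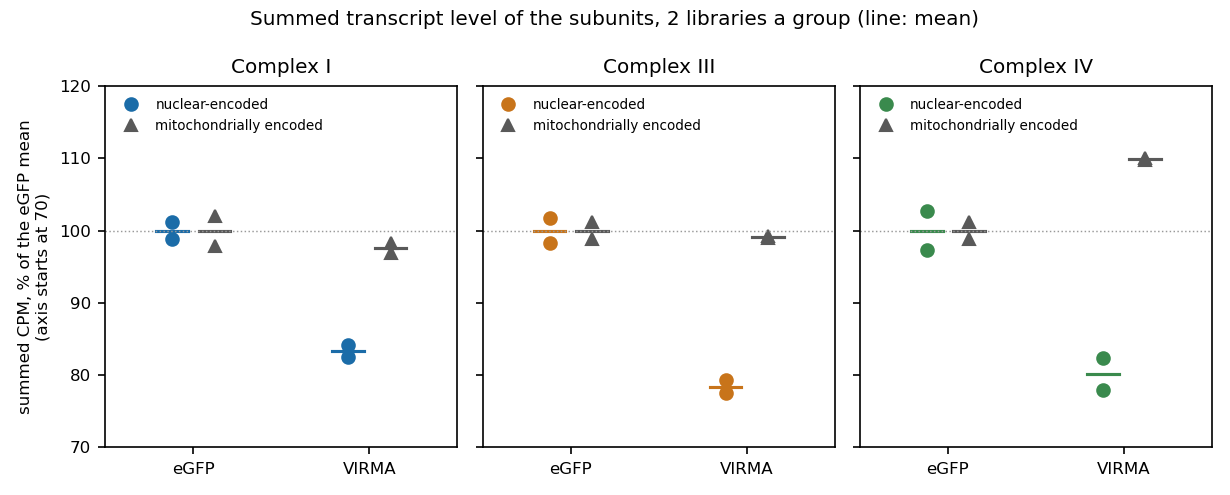
Summed CPM of the nuclear-encoded (circles) and mitochondrially encoded (triangles) subunits of each complex as a percentage of the eGFP control mean (y axis, starting at 70), with 2 libraries a group (x axis) and lines for the group means. The nuclear sums of the VIRMA-overexpressing libraries lie well below 100 in each complex and the mitochondrial sum of complex IV lies above it.

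Of 9 isoforms and paralogs of the subunits 3 passed the filter on low values, of which UQCRHL and COX7A2L fell and NDUFA4L2 was higher. NDUFA4L2, a paralog of NDUFA4 that is known to be induced by low oxygen, was at 1.95 and 2.32 CPM in the controls and 8.02 and 7.55 CPM with VIRMA (log2 fold change 1.87, SE 0.148, adjusted p 1.39e-13, edgeR). It was below 1 RPKM in both controls (mean 0.76 RPKM) and entered the test only through the group where it was higher, with a mean of 2.77 RPKM. Its groups did not overlap, while NDUFA4 itself fell. COX4I2, COX6A2 and COX8C had 0 counts in every library, where the limit that a count of 0 allows is 3 counts a library. COX6B2 (19, 39, 42 and 37 counts), COX7A1 (53, 45, 38 and 44 counts) and COX7B2 (23, 34, 6 and 19 counts) were below the filter. UQCRHL, a near copy of UQCRH, fell from 9.04 and 9.10 CPM to 5.51 and 5.85 CPM (log2 fold change -0.68, SE 0.114, adjusted p 2.54e-06, edgeR), and reads of the 2 cannot be told apart with certainty. COX7A2L, a factor of supercomplexes of complexes III and IV, was at 86.9 and 92.3 CPM and at 77.9 and 81.2 CPM (log2 fold change -0.17, SE 0.0398, adjusted p 2.56e-04, edgeR).

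The other enzymes of oxidative phosphorylation were read in the same fit. NDUFAB1, the acyl carrier protein of complex I, which is not among the 55 genes, fell by 0.64 on the log2 scale. All 4 subunits of complex II fell, with SDHA, its flavoprotein, lowest at -0.58 and SDHD at -0.27. Of 15 nuclear subunits of ATP synthase 13 fell and none rose, with a median log2 fold change of -0.36, and ATP5G1, a gene of the c-ring, was lowest at -0.75. Of 12 genes of electron carriers and coenzyme Q synthesis 6 fell and 2 rose, with PDSS1 lowest at -0.78 and COQ5 highest at 0.28. Set beside the median of -0.31 over the members, the nuclear subunits of complexes II and V had medians of -0.39 and -0.36, against 0.01 over all tested genes. Of all tested genes 35.9% fell and 35.1% rose.

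Assembly factors fell less evenly than the subunits they serve. For complex I, 10 of 17 tested factors fell and 2 rose, with a median of -0.11, NDUFAF1 lowest at -0.51 and TIMMDC1 highest at 0.30. For complex III, 3 of 6 fell and 2 rose, with a median of -0.01, UQCC3 lowest at -0.46 and TTC19 highest at 0.43. For complex IV, 12 of 21 tested factors fell and 1 rose, with a median of -0.22, COX16 lowest at -0.80 and COX19 as the one that rose, at 0.55. Over all tested genes 35.9% fell and 35.1% rose, with a median of 0.01. The differences of the factors from the subunits and from all tested genes were not tested.

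The transcription factors whose letters stand in these promoters did not fall with the members. NRF1 rose from 24.0 and 25.5 CPM in the controls to 40.7 and 41.1 CPM with VIRMA (log2 fold change 0.72, SE 0.0563, adjusted p 7.94e-14, edgeR). GABPA and GABPB1, the 2 chains of GABP, rose by 0.44 and 0.27 on the log2 scale. YY1 was at 104 and 105 CPM and at 100.2 and 102 CPM, a log2 fold change of -0.05 with an adjusted p of 0.189 (edgeR). TFAM, which packages mitochondrial DNA, had the largest fall of the 9 tested regulators at -0.25. PPARGC1A, a coactivator of respiratory genes, had 0 counts in 3 libraries and 2 counts in the fourth. Of the 9, 3 fell and 4 rose, against 35.9% and 35.1% of all tested genes, so these counts were near the background.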

How the data were processed

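Poly-A-enriched RNA of SKBR3 cells was measured in 4 libraries, made with a stranded kit and sequenced as paired-end reads. For each gene the authors deposited raw, unnormalized counts from featureCounts, made after trimming (Trimmomatic 0.39) and alignment by STAR 2.5.2a, next to exon coordinates (GRCh38) and exonic length. The strand setting and the handling of multi-mapping reads are not given in the sources used here. The eGFP control columns name their group, and the other columns, which carry a number, were taken as the VIRMA-overexpressing group.

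RPKM was computed from the deposited counts and lengths, and the 12205 genes above 1 RPKM in at least 2 libraries were tested with edgeR 4.0.16 (quasi-likelihood test, TMM, group as the only term, Benjamini-Hochberg adjustment) in R 4.3.3, after checking on simulated data. CPM and RPKM are scaled after TMM. SE is the log2 fold change over the square root of F. limma 3.58.1 (voom) and DESeq2 1.42.0 were alternatives, and DESeq2 was the test of the study. Depth was 81446932 to 86375474 counts a library, and intervals and floors cover these libraries only. The replicate numbers were checked for pairing: deviations of same-numbered libraries correlated at 0.08, with 2 pairs, so they were not treated as pairs.

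The members and the other gene lists were chosen with earlier results of these data known. Values per library were given for the 5 lowest and 5 highest members past adjusted p 0.05 without overlap of groups (only 4 rose), the 6 core subunits of complex I, UQCRFS1, CYC1, COX4I1, COX5A and COX5B, members below the filter and the isoform subunits. Of the other lists the highest and lowest gene past adjusted p 0.05 were named. Other genes with values per library, such as COX6B1, NDUFA4, UQCRC1 and the members not past the test, were chosen after their values were seen. Promoter sequences are from RefSeq (GRCh38.p14). Protein sequences were not used here.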

Additional observations from a re-analysis of the deposited data

How the results depend on the processing

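The 43 falling and 4 rising members were counted again under each alternative. DESeq2 gave 42 and 3, limma-voom 43 and 4, DESeq2 size factors 43 and 4, filterByExpr 46 and 3, no filter 45 and 3, and at least 10 counts in every library 46 and 4, while upper-quartile factors gave 38 and 5, and both kinds of library totals 36 and 5. Tested against a log2 fold change of 0.25 the counts were 26 and 2. The shares of all tested genes were counted for the TMM fit with the RPKM filter only. The counts of the alternatives therefore have no background beside them. With the replicate number as a block the counts were 44 and 4, where the libraries share only a number. With this block no count moved by over 1.5 times, whereas the 26 and 2 above did. Leaving out each library in turn gave 40 to 45 falling and 2 to 4 rising members, 7 to 17 below -0.5 and 0 to 1 above 0.5.

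The median of all tested genes shifted by 0.07 with upper-quartile factors, 0.08 with library totals and 0.11 with library totals without mitochondrial genes, so the members' changes are best read relative to that shift. Under these 3 scalings, in that order, 6, 6 and 5 members lay below -0.5, and with both library totals 2 lay above 0.5, as they did with at least 10 counts. The share of all tested genes below -0.5 was not counted under these scalings, so whether the members exceeded it there is not known. The median log2 fold change was -0.24, -0.23 and -0.20 over all members, -0.21, -0.20 and -0.18 in complex I, -0.27, -0.26 and -0.23 in complex III, -0.32, -0.31 and -0.28 in complex IV, and -0.23, -0.22 and -0.19 over supernumerary subunits. The median of the core subunits reversed to 0.0043, 0.016 and 0.038. Also reversed were NDUFA10 (0.012, 0.024 and 0.046), NDUFB1 (0.028, 0.040 and 0.062), NDUFS4 (0.064, 0.076 and 0.098), NDUFS8 (0.0043, 0.016 and 0.038) and NDUFV1 (0.0071, 0.019 and 0.041). NDUFB9 (0.0057) and COX4I1 (0.0078) reversed with library totals without mitochondrial genes. With library totals and the same without mitochondrial genes, the log2 ratio of summed levels was -0.18 and -0.16 for nuclear complex I, -0.27 and -0.25 for complex III, -0.24 and -0.21 for complex IV and -0.21 and -0.19 for all 3, and for mitochondrially encoded subunits 0.048 and 0.070 (complex I, reversed), 0.070 and 0.092 (complex III, reversed), 0.22 and 0.24 (complex IV) and 0.15 and 0.17 (all 3). With library totals the median level of complex I in the controls was 33 RPKM and that of complex III with VIRMA 65.4 RPKM.

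Other filters moved medians away from 0. With filterByExpr they were -0.35 over all members, -0.31 in complex I, -0.38 in complex III and -0.11 over core subunits. With no filter they were -0.34, and -0.37 in complex III and -0.10 over core subunits, and with at least 10 counts -0.37 in complex III and -0.095 over core subunits. After subtracting the trend of all genes with length, complex III was at -0.35 and complex IV at -0.33. After subtracting the trend with expression, the medians were -0.22 over all members, -0.18 in complex I, -0.31 in complex III, -0.26 in complex IV and -0.19 over supernumerary subunits, and 0.065 over core subunits, a reversal. Leaving out each library gave medians of -0.36 to -0.32 over all members, -0.34 to -0.25 in complex I, -0.36 to -0.35 in complex III, -0.44 to -0.36 in complex IV, -0.11 to -0.075 over core subunits and -0.38 to -0.27 over supernumerary subunits. NDUFB1 ranged from -0.17 to 0.088 and NDUFS4 from -0.068 to 0.051, and both reversed without eGFP control 2 (0.088 and 0.0038) and without VIRMA-overexpressing 1 (0.054 and 0.051). The cause of the shifts between scalings and filters was not tested. With 2 libraries a group, differences near 0.1 on the log2 scale are close to the limit of these libraries, and outliers within a group could not be tested.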
